A study of Mus musculus with 12 samples.

Results

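Transcripts of 10 hepatic transporter genes were followed in the livers of mice with CCl4-induced hepatic fibrosis. The genes were chosen by the route on which their proteins move bile acids and other bile constituents. Of these, 4 take bile acids and organic anions up from the blood at the sinusoidal membrane of the hepatocyte (Slc10a1, Slco1b2, Slco1a4 and Slco1a1), 3 export into the bile canaliculus (Abcb11, Abcc2 and Abcb4), and 3 export back into the blood at the basolateral membrane (Abcc3, Abcc4 and Slc51b). They are 10 of the 14188 genes of the protein-coding table, and 21 of its 29883 transcripts belong to them. The expression of a gene is the sum of the FPKM of its listed transcripts, where FPKM counts fragments per kilobase of transcript, scaled to the mapped fragments of the library.

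The series compared livers of 6 mice of the PZH group with livers of 6 mice of the control group after 8 weeks of treatment. PZH is Pien Tze Huang, a traditional Chinese medicine. Both groups were injected intraperitoneally 2 times per week with 10 µl/g of a mixture of CCl4, a solvent that injures hepatocytes, and corn oil. PZH was given to the PZH group by gavage, at 0.25 mg/g and 1 time per day, and water to the control group. The sample labels give the strain as C57BL/8, whereas the methods of the study describe C57BL/6J males that were 6 weeks old at the start. No liver without CCl4 was among these 12, so a value in the PZH group can be set against injured liver and not against healthy liver. The labels name no batch. The steps of the lowest FPKM values put the depth at 27.6 to 42.8 M fragments in the PZH group and at 26.8 to 35.5 M in the control group.

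Bile acids are made from cholesterol in hepatocytes, secreted into bile, reabsorbed in the intestine and returned to the liver by the portal blood. Slc10a1 (NTCP) takes up conjugated bile acids together with sodium, and the organic anion transporting polypeptides of the Slco family take up bile acids, bilirubin and drugs without sodium. Abcb11 (BSEP) is the pump that moves bile acids into the canaliculus, Abcc2 (MRP2) exports bilirubin glucuronides and glutathione conjugates there, and Abcb4 (MDR2) brings phosphatidylcholine into bile, which keeps bile acids in mixed micelles. Abcc3 (MRP3), Abcc4 (MRP4) and the heterodimer of Slc51a and Slc51b (OST) return bile acids to the blood and are known as an escape route in cholestasis. The bile acid receptor Nr1h4 (FXR) controls several of these genes.

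Promoter entries were found for 9 of the 10 genes, with 11 start sites. The following stretches are the 250 bases directly upstream of an annotated start (RefSeq, GRCm38.p6), printed 5′ to 3′ on the strand of the gene. They are shown because Slc10a1, Slco1b2 and Abcb11 were the abundant members with the clearest differences between the groups, and because the transcripts of Slc10a1 differed in the start they use. Capitals mark a match to AGGTCANTGACCT, an inverted repeat with a spacer of 1 base, the kind of element that FXR is known to bind, with at most 1 mismatch. The motif reads the same on both strands, and the search was chosen after results of these data were known.
Slc10a1, upstream start, minus strand, chr12:80968706-80968955: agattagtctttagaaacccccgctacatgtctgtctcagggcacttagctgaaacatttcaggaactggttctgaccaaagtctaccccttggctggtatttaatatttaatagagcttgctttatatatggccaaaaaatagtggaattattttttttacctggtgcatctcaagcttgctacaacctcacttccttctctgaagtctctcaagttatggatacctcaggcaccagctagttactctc
Slc10a1, downstream start, minus strand, chr12:80968080-80968329: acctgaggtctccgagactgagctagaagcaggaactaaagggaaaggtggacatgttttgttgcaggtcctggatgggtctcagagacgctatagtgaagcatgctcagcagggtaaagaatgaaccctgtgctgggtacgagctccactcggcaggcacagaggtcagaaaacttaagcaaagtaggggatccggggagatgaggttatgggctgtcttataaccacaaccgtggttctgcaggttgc
Slco1b2, plus strand, chr6:141629268-141629517: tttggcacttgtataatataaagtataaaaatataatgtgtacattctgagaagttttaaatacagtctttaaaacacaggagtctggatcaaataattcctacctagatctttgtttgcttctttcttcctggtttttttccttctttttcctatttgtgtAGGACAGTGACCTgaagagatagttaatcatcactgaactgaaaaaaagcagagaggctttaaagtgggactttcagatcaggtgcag
Abcb11, minus strand, chr2:69342617-69342866: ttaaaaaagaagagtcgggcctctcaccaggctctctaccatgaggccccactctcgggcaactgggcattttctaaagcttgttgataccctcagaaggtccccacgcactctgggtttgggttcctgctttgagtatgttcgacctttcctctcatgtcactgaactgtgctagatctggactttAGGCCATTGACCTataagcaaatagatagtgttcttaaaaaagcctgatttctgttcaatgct

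The match lay at positions -63 to -51 from the start in Abcb11 and at -88 to -76 in Slco1b2. The upstream stretches of the other 7 member genes with an entry, both Slc10a1 starts included, held none. Of 32851 promoters of the table, 26 (0.0791%) held such a match upstream of the start. A match describes these letters only. Whether it is bound, or bears on a difference in expression, was not tested. The stretch before the downstream start of Slc10a1 lies within the first intron of the transcript Slc10a1-202, between its exons at 80968611-80968705 and 80967589-80968057 of chromosome 12.

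The main uptake carriers and the canalicular bile acid pump were higher in the PZH group, and the basolateral pump Abcc4 was lower. With limma on log2(FPKM + 1) and Benjamini-Hochberg adjustment over all 14188 genes, 6 of the 10 members were higher (Slc10a1, Slco1b2, Slco1a4, Abcb11, Abcc2 and Slc51b), 1 was lower (Abcc4) and 3 were not called (Slco1a1, Abcb4 and Abcc3), at an adjusted p threshold of 0.05. Over all genes 12.7% were called higher and 32.1% lower. The median difference was 0.33 over the members and -0.11 over all genes, on the log2(FPKM + 1) scale. At a 2-fold change with an unadjusted p below 0.05, 4 members were called, all higher, against 4.02% of all genes in either direction. The 6 mice of each group did not overlap in 4 members, against 24.3% of all genes. The table lists transcripts with an FPKM sum of at least 1, which Slc51b reached only through its PZH values. Its call and its lack of overlap are therefore no support for a difference.

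**Figure D1:**
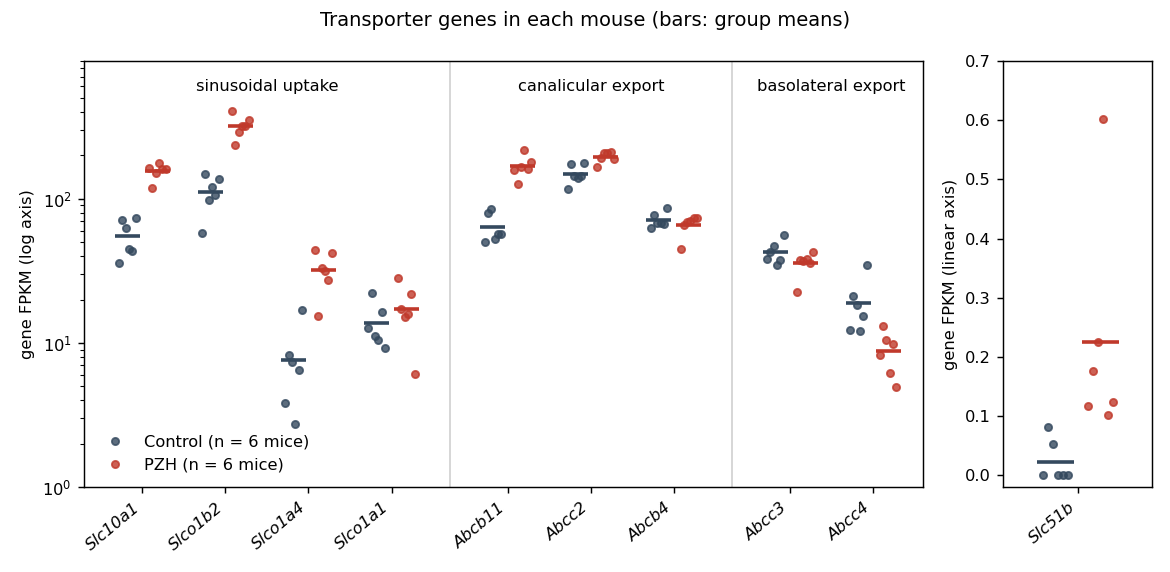
Gene FPKM of the 10 transporter genes in each of the 12 mice, by route, with 1 point per mouse and a bar at the group mean; the left axis is logarithmic and the right axis, for Slc51b, is linear. All PZH mice lie above all control mice for Slc10a1, Slco1b2, Abcb11 and Slc51b, whereas the groups overlap for the other 6 genes.

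Slc10a1 (ENSMUSG00000021135, chromosome 12, 80953183-80968705, minus strand, GRCm38) was 118, 161 and 178 FPKM (lowest, median and highest of 6 mice) in the PZH group. In the control group these values were 35.9, 53.8 and 73.5 FPKM. Every PZH mouse was above every control mouse. The means were 155 ± 20.6 and 55.2 ± 15.9 (SD, n = 6), a ratio of 2.81, and the log2 difference was 1.51 (SE 0.17, limma, Benjamini-Hochberg adjusted p = 3.98e-05). A two-sided exact permutation test of the group labels gave p = 0.00216, the lowest value possible with 6 mice a side.

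Slco1b2 (ENSMUSG00000030236, chromosome 6, 141629518-141686646, plus strand) encodes the main organic anion transporting polypeptide of mouse hepatocytes for unconjugated bile acids. It was 236, 319 and 403 FPKM (lowest, median and highest) in the PZH group. In the control group it was 57.8, 114 and 148 FPKM. The groups did not overlap, and the means of 320.2 ± 56.1 and 111 ± 32.2 FPKM (SD, n = 6) gave a ratio of 2.88. The log2 difference was 1.56 (SE 0.20, limma, Benjamini-Hochberg adjusted p = 8.3e-05), with an exact permutation p of 0.00216.

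Slco1a4 (ENSMUSG00000030237, chromosome 6, 141805440-141856199, minus strand) encodes Oatp1a4, a transporter of bile acids and of drugs such as digoxin. It was 15.3, 32.4 and 44.0 FPKM in the PZH group and 2.74, 6.96 and 16.8 FPKM in the control group (lowest, median and highest). The groups met at a single pair of mice, PZH 2 at 15.3 FPKM below Control 6 at 16.8 FPKM. The log2 difference of 2.06 (SE 0.34, limma, Benjamini-Hochberg adjusted p = 0.000413; exact permutation p = 0.00433) was the largest among the members, with means of 32.2 ± 10.4 and 7.59 ± 4.98 FPKM (SD, n = 6).

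Slco1a1 (ENSMUSG00000041698, chromosome 6, 141907282-141946962, minus strand), which encodes Oatp1a1 and lies on the same chromosome as both other Slco members, did not pass the test. It was 6.05, 16.5 and 28.0 FPKM in the PZH group and 9.17, 11.9 and 22.2 FPKM in the control group. The PZH range enclosed the control range. The log2 difference was 0.26 with a 95% interval from -0.39 to 0.90 (limma, Benjamini-Hochberg adjusted p = 0.514), an interval that leaves room for a higher or a lower level. With 1 mouse left out the difference ranged from 0.10 to 0.51, the latter without PZH 6, and was not called.

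Within the uptake route Slco1b2 and Slc10a1 rose by nearly the same factor. The ratio of Slco1b2 to Slc10a1 within a mouse was 2.06 ± 0.228 in the PZH group and 2.04 ± 0.456 in the controls (SD, n = 6). Slc10a1 made up 29.8 ± 2.35% of the summed uptake FPKM in the PZH group and 29.6 ± 4.05% in the controls. The share of Slco1a1 was 3.34 ± 1.29% and 7.66 ± 2.80%, and that of Slco1a4 was 6.01 ± 1.29% and 3.89 ± 1.81%, with overlap between the groups in both.

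Among the canalicular exporters, Abcb11 (ENSMUSG00000027048, chromosome 2, 69238282-69342616, minus strand) differed most. It was 127, 164 and 218 FPKM (lowest, median and highest) in the PZH group and 50.2, 56.5 and 84.4 FPKM in the control group. Every PZH mouse was above every control mouse. The means were 168 ± 30.0 and 63.2 ± 14.7 FPKM (SD, n = 6), a ratio of 2.66, and the log2 difference was 1.41 (SE 0.15, limma, Benjamini-Hochberg adjusted p = 2.84e-05; exact permutation p = 0.00216).

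Abcc2 (ENSMUSG00000025194, chromosome 19, 43782192-43840740, plus strand) was 166, 199 and 210.4 FPKM in the PZH group. It was 116, 144 and 178 FPKM in the control group. The groups overlapped, with PZH 1 at 166 FPKM below Control 2 and Control 6 at 173 and 178 FPKM. The log2 difference was 0.40 (SE 0.10, limma, Benjamini-Hochberg adjusted p = 0.00731; exact permutation p = 0.00649), a ratio of means of 1.31, smaller than that of Abcb11.

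Abcb4 (ENSMUSG00000042476, chromosome 5, 8893717-8959231, plus strand) did not pass the test. It was 44.8, 69.7 and 73.6 FPKM in the PZH group and 62.3, 67.9 and 86.6 FPKM in the control group. Apart from PZH 1 at 44.8 FPKM, all PZH mice lay within the control range. The log2 difference was -0.12 with a 95% interval from -0.38 to 0.15 (limma, Benjamini-Hochberg adjusted p = 0.466), and -0.01 without PZH 1.

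The mix of canalicular transcripts therefore differed between the groups. Abcb11 took 39.1 ± 4.22% of the summed canalicular FPKM in the PZH group and 22.3 ± 3.75% in the controls (SD, n = 6), without overlap. Abcb4 took 15.4 ± 1.88% and 25.3 ± 1.82%, also without overlap. The ratio of Abcb11 to Abcb4 was 1.92 to 3.51 in the PZH mice against 0.653 to 1.25 in the control mice. In the control group the summed level of Abcb4, at 71.4 ± 8.98 FPKM, was close to that of Abcb11, at 63.2 ± 14.7 FPKM. In the PZH group the bile acid pump was the higher in each mouse. The closeness in the controls rests on Abcb4-202, an entry without an annotated stop codon. It held 62.6 ± 1.59% of the Abcb4 FPKM in the controls and 63.7 ± 2.37% in the PZH group. Abcb4-201, which has a stop codon, was 26.7 ± 3.24 FPKM in the control group, below Abcb11 in each mouse. The canalicular shares and the ratio of Abcb11 to Abcb4 describe the 3 genes within a mouse and were not tested. They do not depend on the scaling of a library.

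On the basolateral side, Abcc4 (ENSMUSG00000032849, chromosome 14, 118482692-118706219, minus strand) was lower in the PZH group. It was 4.98, 9.03 and 13.2 FPKM there and 12.1, 16.9 and 34.8 FPKM in the control group (lowest, median and highest). Only PZH 2 at 13.2 FPKM reached the lower control mice, Control 1 at 12.3 FPKM and Control 4 at 12.1 FPKM. The log2 difference was -0.99 (SE 0.26, limma, Benjamini-Hochberg adjusted p = 0.00753; exact permutation p = 0.00649), with means of 8.81 ± 2.99 and 19.0 ± 8.47 FPKM (SD, n = 6).

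Abcc3 (ENSMUSG00000020865, chromosome 11, 94343295-94392997, minus strand) was 22.7, 37.4 and 42.5 FPKM in the PZH group and 34.6, 40.5 and 55.6 FPKM in the control group. The ranges overlapped between 34.6 and 42.5 FPKM. The log2 difference was -0.26 with a 95% interval from -0.58 to 0.06 (limma, Benjamini-Hochberg adjusted p = 0.172) and was not called.

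Slc51b (ENSMUSG00000053862, chromosome 9, 65412714-65422955, minus strand) was listed near 0 in both groups. The PZH mice were at 0.102, 0.151 and 0.603 FPKM (lowest, median and highest), and the control mice at 0 to 0.0811 FPKM, with 4 of 6 listed at 0. At the depth of each library these values correspond to about 2.16 to 14.0 fragments in a PZH mouse and at most 1.86 in a control mouse. The groups did not overlap and the log2(FPKM + 1) difference was 0.25 (SE 0.09, limma, Benjamini-Hochberg adjusted p = 0.0341), but the call was lost without any 1 of Control 1, Control 4, Control 5, Control 6 or PZH 3, at adjusted p from 0.0562 to 0.0625. No fold change is given at this depth. The control values were too low to bring Slc51b past the FPKM sum of at least 1 needed for listing. It was thus listed through the PZH group, and its call and separation are no support for a difference. Its partner Slc51a was also low, at 0.307 ± 0.0979 and 0.309 ± 0.0881 FPKM (SD, n = 6), and was not called (limma, Benjamini-Hochberg adjusted p = 0.985).

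**Figure D2:**
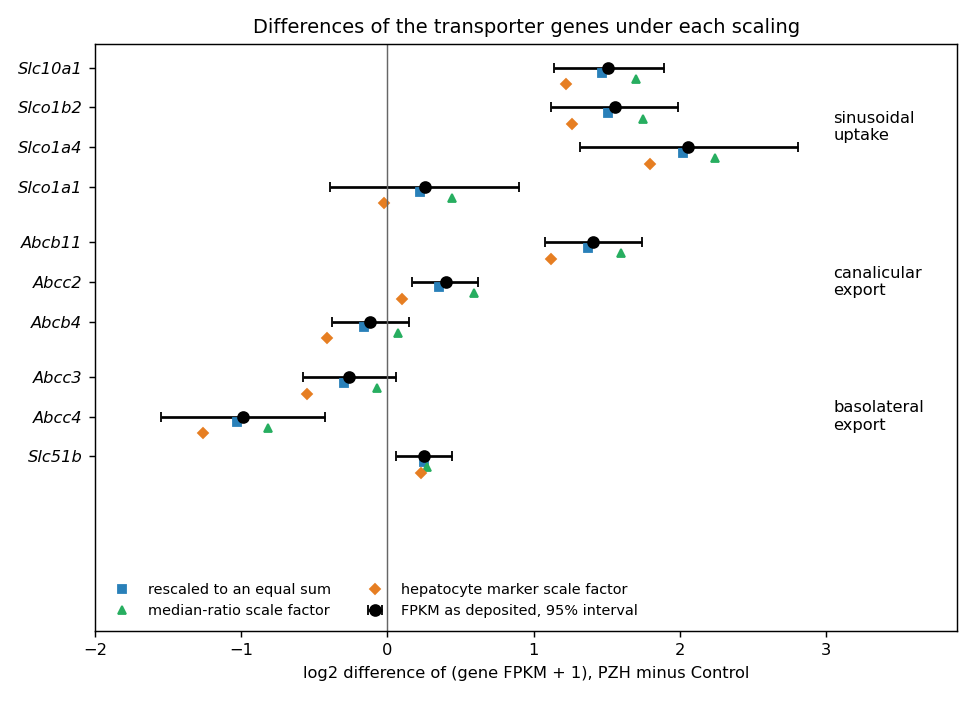
Log2 difference of gene FPKM + 1 between the groups (PZH minus Control) with its 95% interval for each transporter gene, by route, and the same difference after 3 other scalings of each library. Slc10a1, Slco1b2, Slco1a4 and Abcb11 lie between 1.12 and 2.24 under all 4 scalings and Abcc4 between -1.26 and -0.82, whereas Abcb4 and Slco1a1 change sign.

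The scaling of the libraries bears on the smaller differences. A median-ratio scale factor per mouse moved the median difference of all genes from -0.11 to 0.00 and the share of higher among all calls from 28.3% to 50.6%, and it turned Abcb4 to 0.07 (limma, Benjamini-Hochberg adjusted p = 0.642). Of 10 hepatocyte markers, 5 were higher in the PZH group (Alb, Apoa2, Ttr, Asgr1 and Serpinc1), against 12.7% of all genes. The other 5 were not called (Apoa1, Apob, Ahsg, Ambp and F2), and none of the 10 was at 0. Their summed level, most of it Alb, was 48792 to 65512 FPKM in the PZH mice and 29543 to 45092 FPKM in the control mice. After division of each library by the geometric mean of these markers, the differences of Slc10a1, Slco1b2, Slco1a4 and Abcb11 were 1.22, 1.26, 1.80 and 1.12 and remained called, and that of Abcc4 was -1.26. Under the same scaling Abcc2 lost its call, at 0.10 (limma, Benjamini-Hochberg adjusted p = 0.469). Abcb4, at -0.41 (adjusted p = 0.0233), and Abcc3, at -0.55 (adjusted p = 0.00752), were then called lower, but so were 7305 of the 14188 genes, with a median difference of -0.31 over all genes and 11.1% of calls higher. In bulk tissue fewer hepatocytes and less RNA of a gene per hepatocyte cannot be told apart.

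Summed over a route, uptake transcripts reached 525 ± 83.9 FPKM in the PZH group and 188 ± 50.2 FPKM in the control group (SD, n = 6). The canalicular sum was 429.6 ± 45.9 and 284 ± 38.8 FPKM, and the basolateral sum was 44.7 ± 7.01 and 61.7 ± 15.8 FPKM. The groups were separate in the uptake and canalicular sums and overlapped in the basolateral sum. Within a mouse, the ratio of the canalicular to the basolateral sum was 7.59 to 11.8 in the PZH group and 3.55 to 5.59 in the control group. The uptake sum was at or above the canalicular sum in the PZH mice, with ratios of 1.0 to 1.74, and below it in the control mice, with ratios from 0.483 to 0.757. The canalicular sum includes the single-exon entry Abcc2-202, at 78.6 ± 12.7 FPKM in the PZH group and 58.0 ± 10.3 FPKM in the control group. It also includes Abcb4-202, at 42.2 ± 7.26 and 44.7 ± 6.03 FPKM. That the uptake sum lay below the canalicular sum in every control mouse depends on these entries. The ratio of Slc10a1 to Abcb11, the sodium-dependent uptake carrier over the canalicular pump, overlapped between the groups, at 0.930 ± 0.0800 and 0.880 ± 0.218. These sums and ratios are given without a test.

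**Figure D3:**
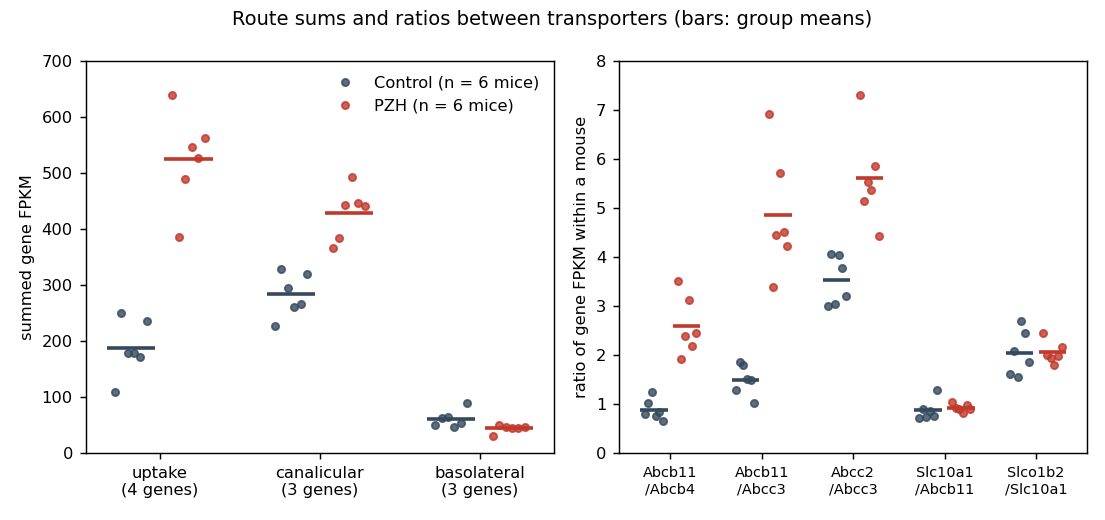
Summed gene FPKM of each route (left) and ratios of FPKM between pairs of transporter genes within a mouse (right), on linear axes that start at 0, with 1 point per mouse and a bar at the group mean. The 2 groups are separate for the uptake and canalicular sums and for Abcb11 over Abcb4, Abcb11 over Abcc3 and Abcc2 over Abcc3, and overlap for Slc10a1 over Abcb11 and Slco1b2 over Slc10a1.

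The order of the summed gene levels differed between the groups. In the PZH group the means descended from Slco1b2 at 320.2 FPKM over Abcc2 at 195, Abcb11 at 168 and Slc10a1 at 155 to Abcb4 at 66.2 FPKM. In the control group Abcc2, at 149 FPKM, was the highest, followed by Slco1b2 at 111, Abcb4 at 71.4, Abcb11 at 63.2 and Slc10a1 at 55.2 FPKM. The top place of Abcc2 there depends on its single-exon entry. The full Abcc2 transcript had a mean of 91.0 FPKM in the control group, below Slco1b2. In the PZH group its mean was 116 FPKM, below Abcb11 and Slc10a1. The place of Abcb4 above Abcb11 in the control group depends on the Abcb4 entry without an annotated stop codon. The Abcb4 transcript with a stop codon had a mean of 26.7 FPKM there. Abcb11 and Slc10a1 were neighbours in both orders and lay within 1 SD of each other, as did Abcb4 and Abcb11 in the control group. Abcc4 stood above Slco1a4 in the control group and below it in the PZH group. Slc51b was the lowest in both.

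The transcripts of the members were tested in the table of 29883 transcripts. Of 21 member transcripts 7 were higher in the PZH group and 2 lower (limma, Benjamini-Hochberg adjusted p threshold of 0.05), against 5.73% and 14.0% of all transcripts. The higher ones were Slc10a1-202, Slco1b2-201, Slco1a4-202 and Slco1a4-203, Abcb11-202 and Abcb11-204, and Abcc2-201, and the lower ones were Slc10a1-201 and Abcc4-201. The main transcript of Abcb11, Abcb11-202, was 168 ± 30.1 and 62.9 ± 14.6 FPKM (SD, n = 6), whereas Abcb11-204 stayed below 1 FPKM in every mouse. The call of Abcc4-201 was lost without PZH 4, at an adjusted p of 0.0521.

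Slc10a1 was the member whose transcripts moved in opposite directions. Slc10a1-202, which begins at the upstream start (chromosome 12, position 80968705), was 96.4, 139.9 and 154 FPKM (lowest, median and highest) in the PZH group and 8.46, 26.3 and 46.1 FPKM in the control group. Slc10a1-201, which begins 626 bases downstream at position 80968079, was 3.02, 4.37 and 5.10 FPKM in the PZH group and 9.21, 12.1 and 21.1 FPKM in the control group. The groups did not overlap in either transcript, and the upstream transcript was the higher and the downstream transcript the lower in the PZH group. The log2 differences were 2.50 (SE 0.38, limma, Benjamini-Hochberg adjusted p = 0.000805) and -1.44 (SE 0.18, adjusted p = 0.000288), and both kept their sign and call under the 3 other scalings.

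Both transcripts carry the same coding sequence of 1086 bases. They share 1652 bases, and only 97 bases of Slc10a1-202 and 22 bases of Slc10a1-201 are not shared, all but a few at the 5′ end, so the split of the reads between them rests on the 5′ exons. Slc10a1-203, with 951 coding bases and another 3′ end, was 20.2 ± 4.67 and 15.8 ± 2.71 FPKM (SD, n = 6) and was not called (limma, Benjamini-Hochberg adjusted p = 0.149).

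As a share of the Slc10a1 FPKM, Slc10a1-202 was 77.7% to 87.7% in the PZH mice against 19.6% to 64.9% in the control mice. Slc10a1-201 was 1.69% to 4.33% and 12.9% to 48.8%, and Slc10a1-203 was 10.4% to 19.3% and 22.2% to 35.0%. The groups did not overlap in any of the 3 shares. Of 19 member transcripts from 8 genes in the test of shares, 2 were called, both of Slc10a1, against 0.345% of 21454 transcripts tested. The share of Slc10a1-202 was higher by 39.9 percentage points (SE 6.77, limma, Benjamini-Hochberg adjusted p = 0.0381). That of Slc10a1-203 was lower, at -16.5 percentage points (SE 2.25, adjusted p = 0.0121), and that of Slc10a1-201 was -23.4 percentage points (SE 5.27) and missed the threshold, at an adjusted p of 0.127. The call for Slc10a1-202 was lost when any mouse other than Control 2 or Control 5 was left out, with adjusted p up to 0.0933, whereas that for Slc10a1-203 held in all 12 cases, with adjusted p up to 0.0448.

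**Figure D4:**
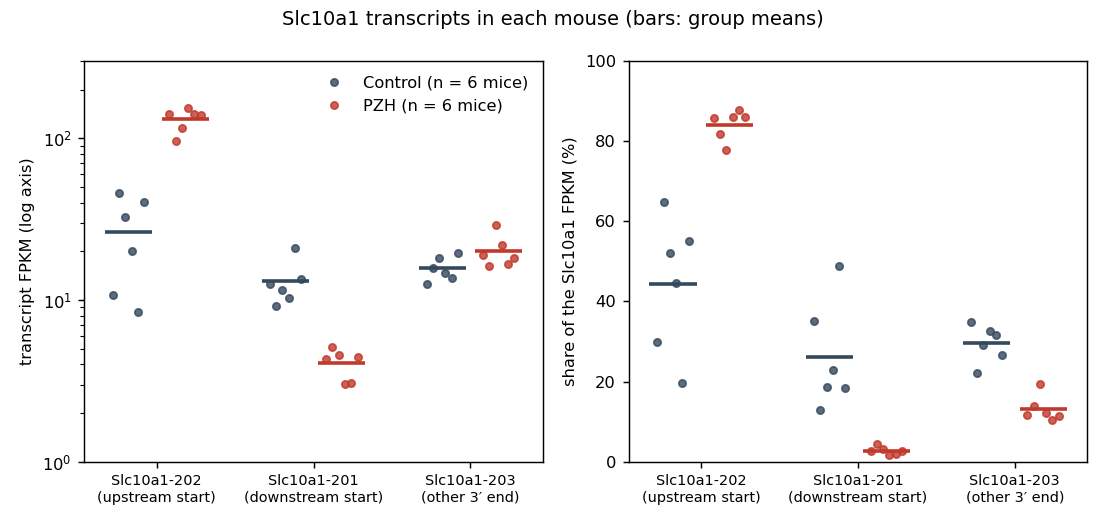
FPKM (left, logarithmic axis) and share of the Slc10a1 FPKM in percent (right, linear axis) of the 3 Slc10a1 transcripts in each mouse, with a bar at the group mean. Slc10a1-202 from the upstream start is at 96.4 FPKM or more in the PZH mice and at 46.1 or less in the control mice, while Slc10a1-201 from the downstream start lies in the opposite order.

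No transcript share of another member was called. Slco1a1-201 held 12.8% to 91.0% of the Slco1a1 FPKM in the PZH mice against 18.5% to 91.8% in the control mice. Within either group the mice fell near 1 end or the other of this range, and the 2 Slco1a1 transcripts share 3243 bases. Slco1a4-202 and Slco1a4-203 were both higher in the PZH group, at 9.29 ± 2.74 against 2.07 ± 1.19 FPKM and at 22.7 ± 7.69 against 5.17 ± 3.76 FPKM (SD, n = 6). The minor Slco1a4-201 was 0.224 ± 0.119 and 0.342 ± 0.0985 FPKM and was not called (limma, Benjamini-Hochberg adjusted p = 0.267). Its share of the Slco1a4 FPKM was 0.267% to 1.27% in the PZH mice against 2.50% to 11.5% in the control mice, without overlap, and missed the threshold, at an adjusted p of 0.2 (exact permutation p = 0.00216). Slco1a4-202 and Abcb4-202 carry no annotated stop codon. Abcc2-202 is a single exon of 1926 bases within Abcc2-201, with 132 coding bases, none of them shared with the coding bases of Abcc2-201. The full transcripts hold most or all bases of these entries, so the FPKM of these entries rests on how the reads of shared bases were divided.

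Genes that work beside the transporters were taken from lists of the pathway, whose counts stand beside the 12.7% of all genes called higher and the 32.1% called lower. Of 13 genes of bile acid synthesis, 8 were higher in the PZH group and none passed as lower, and their summed level was 1492 to 2016 FPKM in the PZH mice and 1159 to 1282 FPKM in the control mice. Cyp7a1, the rate-limiting enzyme of the classical pathway, was 35.5, 45.7 and 155 FPKM (lowest, median and highest) in the PZH group and 0.0970, 1.10 and 8.92 FPKM in the control group. The groups did not overlap, and its log2 difference was 4.54 (SE 0.53, limma, Benjamini-Hochberg adjusted p = 4.63e-05). Akr1d1, the reductase of the steroid ring, was 68.8 ± 16.8 and 16.3 ± 6.85 FPKM (SD, n = 6; adjusted p = 9.41e-05). Cyp2c70, which makes the muricholic acids of mice, was 365 ± 58.6 and 165 ± 42.8 FPKM (adjusted p = 0.000174). Cyp8b1, the enzyme that directs synthesis to cholic acid, was 8.47 ± 5.67 and 2.76 ± 1.81 FPKM (adjusted p = 0.0293), a call that was lost without any 1 of Control 1, Control 4, Control 5, PZH 1, PZH 4 or PZH 5.

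Of 19 transcriptional regulators and receptors of bile acid handling, 8 were higher in the PZH group and 2 lower. Nr1h4 (FXR) was 46.7, 51.1 and 64.2 FPKM in the PZH group and 18.2, 27.8 and 32.7 FPKM in the control group. It was higher in every PZH mouse than in any control mouse, with a log2 difference of 0.98 (SE 0.13, limma, Benjamini-Hochberg adjusted p = 8.97e-05). Nr0b2 (SHP), a repressor that FXR is known to induce, was 10.7 ± 3.71 and 13.8 ± 4.13 FPKM (SD, n = 6) and was not called, at -0.35 with a 95% interval from -0.80 to 0.10 (adjusted p = 0.194). After hepatocyte marker scaling Nr0b2 was called lower, at -0.62 (adjusted p = 0.0103), as were 7305 of the 14188 genes. Median-ratio scaling gave -0.17 for Nr0b2 (limma, Benjamini-Hochberg adjusted p = 0.579). The xenobiotic receptors Nr1i3 (CAR), at 19.0 ± 7.41 and 7.87 ± 2.68 FPKM (adjusted p = 0.00278), and Nr1i2 (PXR), at 24.7 ± 4.44 and 14.4 ± 2.65 FPKM (adjusted p = 0.00102), were higher in the PZH group. So was Ppara, the fatty acid receptor, at 44.0 ± 4.33 and 23.4 ± 6.02 FPKM (adjusted p = 0.000534).

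Of 19 other transporter genes listed, 6 were higher in the PZH group and 7 lower, the latter close to the share of all genes called lower. Slc10a5, a relative of Slc10a1 without an established substrate, was 20.8, 29.6 and 33.6 FPKM in the PZH group and 5.88, 8.53 and 11 FPKM in the control group, and its log2 difference of 1.63 (SE 0.15, limma, Benjamini-Hochberg adjusted p = 1.42e-05) stood beside 1.51 for Slc10a1. Slco2b1 was 31.8 ± 5.02 and 17.9 ± 2.57 FPKM (SD, n = 6; adjusted p = 0.000222), and the hepatocyte ABC protein Abcc6 was 23.1 ± 4.78 and 13.3 ± 2.15 FPKM (adjusted p = 0.00125). Slco3a1, an organic anion transporter, was lower in the PZH group, at 1.97 ± 0.294 and 3.97 ± 0.635 FPKM (adjusted p = 7.2e-05).

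The genes listed for the scaffold of the canalicular membrane and for trafficking to it were mixed. Of 14 scaffold and trafficking genes, 5 were higher and 5 lower. The canalicular peptidase Dpp4 was 29.9 ± 4.76 and 15.9 ± 1.98 FPKM (SD, n = 6; limma, Benjamini-Hochberg adjusted p = 7.11e-05), and the scaffold Pdzk1 was 16.3 ± 1.40 and 9.27 ± 2.47 FPKM (adjusted p = 0.00093). With its most abundant transcript alone Pdzk1 lost its call, at a log2 difference of 1.47 (adjusted p = 0.139). The membrane fusion protein Stx3 was lower in the PZH group, at 1.11 ± 0.215 and 3.55 ± 1.32 FPKM (adjusted p = 0.000394), as was the actin linker Msn, at 22.7 ± 2.54 and 37.1 ± 5.46 FPKM (adjusted p = 0.000193). Of 10 tight junction genes, which seal the canaliculus, 1 was higher and 5 were lower. Cldn14 was 2.99 ± 0.591 and 7.72 ± 1.13 FPKM (adjusted p = 1.82e-05), and F11r was 17.5 ± 4.28 and 30.6 ± 6.48 FPKM (adjusted p = 0.00256). Ocln was higher, at 8.70 ± 1.32 and 6.11 ± 1.70 FPKM (adjusted p = 0.0214), and lost its call after hepatocyte marker scaling, at a log2 difference of 0.21, and with its most abundant transcript alone, at 0.39 (adjusted p = 0.331).

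**Figure D5:**
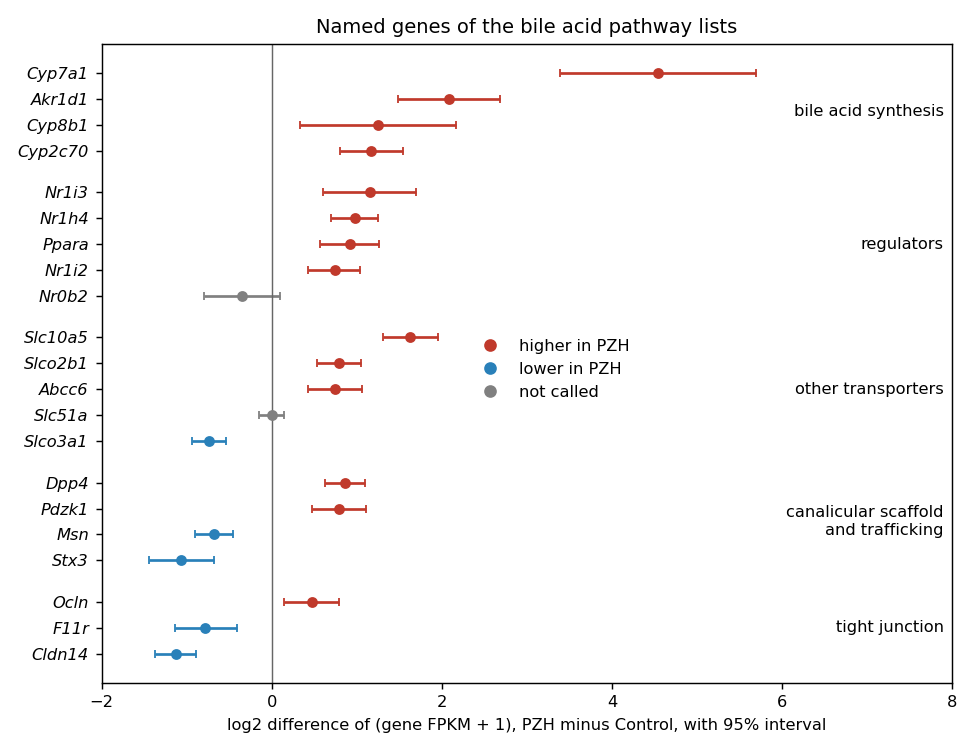
Log2 difference of gene FPKM + 1 between the groups (PZH minus Control) with its 95% interval for the named genes of the 5 pathway lists; red and blue points passed limma with Benjamini-Hochberg adjustment as higher and lower, and gray points did not. Cyp7a1 at 4.54 has the largest difference, all 4 synthesis genes named are higher, and 2 of the 3 tight junction genes named are lower.

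Other cells of the liver also carry some of these transporters, and cholangiocytes are known to express Slc51b and Abcc3. Of 8 cholangiocyte markers listed, 2 were lower in the PZH group, against 32.1% of all genes, and 6 were not called, and their summed level overlapped, at 110.3 to 176 FPKM in the PZH mice and 145 to 215 FPKM in the control mice. None of the 8 was at 0 in all mice, and 4 were below 1 FPKM in both groups. The 2 lower ones were Sox9, at 2.73 ± 0.430 and 10.7 ± 1.78 FPKM (SD, n = 6), and Aqp1, at 42.5 ± 3.62 and 50.4 ± 3.66 FPKM. Krt19, among the 6 not called, was 2.88 ± 0.850 and 3.07 ± 1.17 FPKM. Macrophage markers were higher in 2 and lower in 2 of 8, stellate cell markers higher in 2 and lower in 2 of 9, and endothelial markers lower in 2 of 8. Beside these counts stand 12.7% of all genes called higher and 32.1% called lower. No leukocyte marker passed limma's test at the adjusted threshold or at an unadjusted p of 0.05. The part of these cells in the differences of the transporters was not tested.

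As a description of likeness, the genes closest to a member were ranked by Pearson correlation of log2(FPKM + 1) over the 12 mice after the mean of each group was subtracted, among 10948 genes with a mean FPKM of at least 1. For Slc10a1 these were Tmem204 (r = 0.940), Slc10a5 (r = 0.933) and Nfs1 (r = 0.932). For Abcb11 they were Pank1 (r = 0.945), Tmem135 (r = 0.930) and Gstm7 (r = 0.920). For Abcc4 they were Thop1 (r = 0.925), Kdelr1 (r = 0.921) and Slc24a3 (r = 0.908). The 12 mice share the scale of their libraries, and the highest of many correlations is high by selection.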

How the data were processed

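Liver RNA of 12 mice was made into ribosomal RNA-depleted, strand-specific libraries by the authors and sequenced with reads of 150 bp. Per the methods and labels of the study, reads were trimmed with Trimmomatic, mapped to GRCm38 with HISAT2 version 2.1.0 and assembled with StringTie version 1.3.5 and Ensembl release 95. The authors deposited FPKM per protein-coding transcript and mouse, a linear unit that corrects for library size and transcript length, for transcripts with an FPKM sum of at least 1. Counts were not recovered, so no counting interval was computed.

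Gene FPKM was the sum over the transcripts of a gene in GENCODE M21, which held 29876 of 29883 transcripts. Groups were compared on log2(FPKM + 1) without a filter, two-sided, with limma 3.58.1 in R 4.3.3 and Benjamini-Hochberg adjustment over all features. This scale understates the change of low genes. Transcript shares were tested alike for genes with a mean FPKM of at least 1. The procedure was tested on simulated data. The remaining steps used Python 3.11.15, pandas 2.3.3 and numpy 2.4.6. Nothing in the labels says that the mice were handled in batches.

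Members and lists were chosen with earlier results of these data known. Named genes were all members, up to 4 genes per pathway list with the largest differences past the threshold, and Nr1h4, Nr0b2, Cyp7a1 and Slc51a. Of the genes that this rule gave, 1 is not reported. As alternatives, 3 other scalings, a pseudocount of 0.1, a minimum mean FPKM of 1, no variance moderation, a mean-variance trend, the most abundant transcript alone, other settings for shares, a replicate block by mouse number and leaving out each mouse were tried. The lncRNA table was not used here.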

Additional observations from a re-analysis of the deposited data

Results flagged for a closer look

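The values formed 20 groups of 6 mice, 10 genes in each of the PZH and control groups. In 3 of them a mouse stood far from the other 5 by Dixon's criterion. Chance gives this in about 1 of 20 groups of normally distributed values. Abcb4 in PZH 1 was 44.8 FPKM, below the next PZH mouse at 66.0 FPKM. Abcc3 in PZH 1 was 22.7 FPKM, below the next at 35.9 FPKM. Abcb4 and Abcc3 correlated at r = 0.885 over the 12 mice after the mean of each group was subtracted, so their flags are not independent. Without PZH 1 the log2 differences of Abcb4 and Abcc3 were -0.01 and -0.14, and neither gene was called with or without it. Slc51b in PZH 4 was 0.603 FPKM, above the next at 0.225 FPKM, which is about 14.0 fragments.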

How the results depend on the processing

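No call of Slc10a1, Slco1b2, Slco1a4, Abcb11 or Abcc4 at the gene level was lost under any alternative, and that of Abcc2 was lost under hepatocyte marker scaling alone. That scaling raised the members called lower from 1 to 3 genes and from 2 to 4 transcripts. Differences that changed sign belonged to features that were not called: Slco1a1 at -0.02 under hepatocyte marker scaling and -0.09 with its most abundant transcript alone, and, under median-ratio scaling, Abcb4 at 0.07, Slc51a at 0.04, Abcb4-201 at 0.03, Abcb4-202 at 0.10, Abcc3-201 at 0.00 and Slco1a1-201 at 0.08. With 1 mouse left out, Slc51a ranged from -0.04 to 0.02, Slco1a1-201 from -0.43 to 0.26 and Abcb4-202 from -0.14 to 0.01.

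Mice of the same number did not deviate together, with correlations from -0.078 to 0.093 over 6 pairs and 2 mice closest to their own number, so they share only a number. With the mouse number as a replicate block, 5 members were higher and 1 lower, Slc51b losing its call (adjusted p = 0.0551), and 1 member transcript was lower in place of 2. The block took the called shares from 74 to 2 transcripts and the called member shares to 0 higher and 0 lower, at adjusted p of 0.31 for Slc10a1-202 and 0.224 for Slc10a1-203. The arcsine transform gave 49 called shares, with 2 member shares lower. With 1 mouse left out, called shares numbered 33 to 72, members with a higher share 0 to 1 and member transcripts lower 1 to 2. The cause of these shifts was not tested. FPKM without counts leaves the depth behind Slc51b and the minor transcripts approximate.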
